A study of Saccharomyces cerevisiae with 21 samples.

Results

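The comparison described here sets budding yeast cells that lost Sth1 together with Rap1 against cells that lost Rap1 alone. It was taken by the sample labels as the 3 RAP1-AID/STH1-AID libraries with IAA against the 3 RAP1-AID libraries with IAA, 6 of the 21 nascent RNA-seq libraries of the series, which fall into 7 groups of 3. Nascent RNA-seq reads the RNA held by RNA polymerase II (Pol II), which was purified from Saccharomyces cerevisiae through the Rpb3 subunit carrying a 3xFLAG tag. All strains were haploid MATa cells grown in rich YPD medium at 30 °C. The paper lists deletions at HIS3, LEU2, MET15 (also called MET17) and URA3 for each of them. The degron strains carried auxin-inducible degron (AID) alleles, RAP1-3V5-IAA7 with or without STH1-3V5-IAA7, and the plant protein OsTIR1 from the GPD1 promoter. IAA, an auxin, leads OsTIR1 to mark AID-tagged proteins for degradation, and it was given at 500 µM for 2 h, so Rap1 carried the degron on both sides of the comparison, and in the strain with both degrons IAA acted on both proteins over the same 2 h. Sth1 loss in Rap1-depleted cells is meant in this sense below. The other groups used for reference were both strains with DMSO, the solvent, STH1-AID cells (STH1-3V5-IAA7 with OsTIR1) with DMSO or IAA, and WT cells, which had the Rpb3 tag but no degron and no OsTIR1 and received no DMSO. The compared strains differ by the STH1 degron allele and by their construction, which cannot be told apart from Sth1 loss in these 6 libraries alone. The difference between the same strains with DMSO is therefore described as well, for all genes together and for some lists and genes.

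Sth1 is the ATPase of RSC, an essential chromatin remodelling complex that slides and evicts nucleosomes and so keeps the nucleosome-depleted regions of promoters open. Rap1 is a general regulatory factor, a DNA-binding protein that sits at most ribosomal protein gene promoters, at several glycolytic and translation factor genes, at telomeres and at the silent mating-type loci. At many promoters general regulatory factors and RSC act on the same nucleosome-depleted region, and the loss of either is known to allow transcription from start sites that are normally not used. The comparison asks how nascent transcription differs when the RSC ATPase is depleted as well as Rap1.

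Between 18451064 and 21488616 expected counts fell on genes in each of the 6 libraries, and between 18289832 and 23182315 in all 21. Replicates correlated at 0.988 to 0.993 (RAP1-AID/STH1-AID IAA) and 0.992 to 0.996 (RAP1-AID IAA) in log CPM. One library stood apart in its makeup. Ribosomal RNA took 2.37% of the counts in RAP1-AID/STH1-AID IAA replicate 1 and 0.0871% to 0.203% in the other 5. Levels are normalised read counts (CPM, the TMM-scaled count as a share of its library), and a log2 fold change has its standard error after ±. The a-specific genes STE2, BAR1 and STE6 were read at 290, 253 and 419 CPM in WT, and at 621, 329 and 471 CPM in RAP1-AID/STH1-AID IAA cells, whereas the alpha-factor genes MF(ALPHA)1 and MF(ALPHA)2 stayed at or under 1.76 CPM in every group mean. Other markers were less clear. The a-specific MFA1, ASG7, MFA2 and AGA2 were at 0.145, 0.422, 1.66 and 3.70 CPM in WT. The alpha-specific SAG1, HMLALPHA2 and STE3 were at 30.6, 17.5 and 0.093 CPM in WT, and at 156, 8.99 and 2.65 CPM in RAP1-AID/STH1-AID IAA cells. No spike-in enters these values, so they are shares of the nascent RNA of a library, and fewer transcribing cells and less RNA per cell cannot be told apart.

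Promoters of the genes on which the results turn are shown first. UGO1 and RXT3 are transcribed away from a ribosomal protein gene, and YOR292C is an uncharacterised gene whose window holds the Rap1 motif. Among genes averaging 50 counts or more in the 6 libraries, with groups that did not overlap and leaving out retrotransposons, ECM8 and RRT5 had the largest increases, and DFP4 the largest decrease after COS3. Each is printed 5′ to 3′ on the strand of its gene, from 250 bases before to 50 bases after the first base of the start codon, from the RefSeq R64 assembly. Capitals mark runs of at least 7 A or 7 T, the TATA sequence TATAAA and the Rap1 motif (CACCC, then 2 bases of any kind, then ACA), each searched on both strands.
UGO1 (chrIV:1401165-1401464, minus strand): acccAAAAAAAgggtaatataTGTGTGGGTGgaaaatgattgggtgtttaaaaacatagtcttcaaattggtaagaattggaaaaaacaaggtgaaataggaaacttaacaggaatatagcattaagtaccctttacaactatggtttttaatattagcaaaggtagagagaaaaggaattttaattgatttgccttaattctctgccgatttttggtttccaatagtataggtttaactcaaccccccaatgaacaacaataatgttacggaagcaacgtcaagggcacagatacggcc
YOR292C (chrXV:866533-866832, minus strand): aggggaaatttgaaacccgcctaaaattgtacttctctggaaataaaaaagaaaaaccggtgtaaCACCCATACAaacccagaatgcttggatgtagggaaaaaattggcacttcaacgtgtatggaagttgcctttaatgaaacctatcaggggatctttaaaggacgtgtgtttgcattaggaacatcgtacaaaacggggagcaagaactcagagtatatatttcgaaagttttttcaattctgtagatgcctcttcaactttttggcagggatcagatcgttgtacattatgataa
RXT3 (chrIV:321503-321802, minus strand): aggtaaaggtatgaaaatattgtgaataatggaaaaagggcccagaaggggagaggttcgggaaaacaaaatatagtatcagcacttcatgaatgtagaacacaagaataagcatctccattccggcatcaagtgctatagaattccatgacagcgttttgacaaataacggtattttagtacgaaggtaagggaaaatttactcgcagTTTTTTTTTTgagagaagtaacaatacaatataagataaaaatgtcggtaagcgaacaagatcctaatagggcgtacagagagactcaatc
ECM8 (chrII:389977-390276, plus strand): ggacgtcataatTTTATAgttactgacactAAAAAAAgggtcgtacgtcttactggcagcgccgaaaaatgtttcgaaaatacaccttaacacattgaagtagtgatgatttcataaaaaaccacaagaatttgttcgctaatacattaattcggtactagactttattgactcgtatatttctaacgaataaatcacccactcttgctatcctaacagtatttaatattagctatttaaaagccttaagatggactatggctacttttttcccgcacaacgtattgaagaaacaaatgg
RRT5 (chrVI:222910-223209, minus strand): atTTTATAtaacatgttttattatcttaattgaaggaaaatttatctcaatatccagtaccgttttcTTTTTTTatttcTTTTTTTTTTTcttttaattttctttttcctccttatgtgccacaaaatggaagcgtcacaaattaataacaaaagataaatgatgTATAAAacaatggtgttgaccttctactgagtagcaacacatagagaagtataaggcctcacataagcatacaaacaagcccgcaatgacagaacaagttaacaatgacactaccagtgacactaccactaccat
DFP4 (chrVIII:13315-13614, plus strand): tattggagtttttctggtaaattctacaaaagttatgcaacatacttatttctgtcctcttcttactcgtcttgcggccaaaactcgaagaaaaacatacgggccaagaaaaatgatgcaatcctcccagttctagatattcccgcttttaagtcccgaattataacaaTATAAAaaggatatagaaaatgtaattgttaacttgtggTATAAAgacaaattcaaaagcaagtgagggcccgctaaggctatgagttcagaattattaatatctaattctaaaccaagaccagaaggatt

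The Rap1 motif starts 229 bases before the start codon of UGO1 and 185 bases before that of YOR292C, and these letters are not in the other 4 windows. DFP4 and RRT5 hold 2 TATAAA sequences each, and ECM8 holds 1.

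With Sth1 lost beside Rap1, nascent transcription differed for 1055 of 5742 protein-coding genes tested, which is 18.4%, with 461 genes higher (8.03%) and 594 lower (10.3%). A call needed an adjusted p-value below 0.05 in edgeR's quasi-likelihood test and a change of over 1 on the log2 scale in either direction. A change of more than 4-fold was seen for 104 genes that rose and 72 that fell, and one of more than 16-fold for 13 and 4. The 3 libraries of one group lay wholly apart from the 3 of the other for 4115 genes, 71.7% of those tested. The median log2 fold change over all protein-coding genes was −0.05, with quartiles of −0.56 and 0.51. Scaling by total library size in place of TMM moves this median to −0.43 and the calls to 209 higher and 1297 lower, so the directions given here are relative to the bulk of genes. Without RAP1-AID/STH1-AID IAA replicate 1, the library with more ribosomal RNA, 1001 genes were called, 967 of them among the 1055.

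The STH1 transcript itself was read at 1713, 1473 and 1660 CPM in RAP1-AID/STH1-AID IAA and at 463, 400 and 422 CPM in RAP1-AID IAA. The groups did not overlap, and the transcript rose by 1.92 ± 0.10 on the log2 scale (adjusted p = 7.8e-12, edgeR). The degron acts on the protein, so this value does not check the depletion. STH1 also stood higher in the STH1-tagged strain with DMSO (log2 difference 0.65). The RAP1 transcript, at 882, 742 and 867 against 706, 615 and 795 CPM, differed by 0.24 ± 0.10 and was not called (adjusted p = 0.050). Of the 17 RSC subunit genes, STH1 and RSC4 (1.05 ± 0.10), which encodes a bromodomain subunit, rose (11.8%, beside 8.03% of all genes) and none fell. RSC1, an alternative bromodomain subunit, had a value of 0.93 and was not called, and it passes the fold limit without RAP1-AID/STH1-AID IAA replicate 2 (1.02). CBF1, a regulatory factor of centromeres and methionine genes, was the 1 of 6 general regulatory factor genes that rose (1.27 ± 0.10).

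Within the same limits on counts, overlap and retrotransposons, the largest increase was that of ECM8, a gene of poorly known function linked to the cell wall. It was read at 37.99, 32.7 and 31.8 CPM after co-depletion and at 1.03, 1.14 and 0.741 CPM after Rap1 depletion alone. It thus went from the level of a nearly silent gene, in every library, to a moderate one, with a log2 fold change of 5.12 ± 0.24 (34.8-fold). RRT5, also of poorly known function, was read at 16.9, 15.4 and 16.8 against 0.474, 1.11 and 0.523 CPM (4.53 ± 0.25). MTD1, a methylenetetrahydrofolate dehydrogenase of one-carbon metabolism, was the most transcribed of the 10 genes with the largest increases, at 704, 905 and 899 against 61.4, 69.2 and 77.5 CPM (3.59 ± 0.21). All 3 sets of libraries were far apart compared with their spread. HMX1, the haem oxygenase, stood at 97.4, 77.8 and 89.3 against 9.72, 10.3 and 10.7 CPM (3.10 ± 0.15). The others of the 10 were ARG1 (4.17), YDR215C (3.92), YDR222W (3.79), HMS1 (3.51), SPS1 (3.29) and ARG3 (2.95). SPS1 is a protein kinase of spore wall formation, and HMS1 is a transcription factor of the basic helix-loop-helix class.

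Abundant membrane protein genes also moved, and these were chosen after their values were seen. FCY2, the purine-cytosine permease, was read at 5356, 4203 and 5753 against 1049, 1277 and 1321 CPM (2.07 ± 0.18), with some reads shared among related genes. AQR1, a multidrug transporter, was read at 5254, 4879 and 5331 against 1271, 1206 and 1419 CPM (1.99 ± 0.13). PMA1, the plasma membrane proton pump, rose by 1.24 ± 0.22.

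The largest decreases within these limits came from genes of low or moderate level. DFP4, a DUP240 family gene, was read at 0.231, 0.298 and 0.433 CPM after co-depletion and at 6.83, 6.87 and 5.84 CPM after Rap1 depletion (−4.31 ± 0.34). HFM1, a meiotic DNA helicase, was read at 6.01, 4.89 and 6.01 against 92.5, 90.7 and 71.6 CPM (−3.91 ± 0.16). Both genes were lower in every co-depleted library. COS3 had no count in the 3 co-depleted libraries and 21.5, 0.0789 and 30.5 CPM in the others, where its reads were divided among close relatives, and no fold is given. The remaining genes of the 10 were MEI4 (−3.75), FDC1 (−3.75), MIP6 (−3.60), DCG1 (−3.41), YOR012W (−3.25), GPX1 (−3.14) and COS10 (−3.01). MEI4 acts in meiotic double-strand break formation, FDC1 is a ferulic acid decarboxylase and GPX1 is a glutathione peroxidase.

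**Figure D1:**
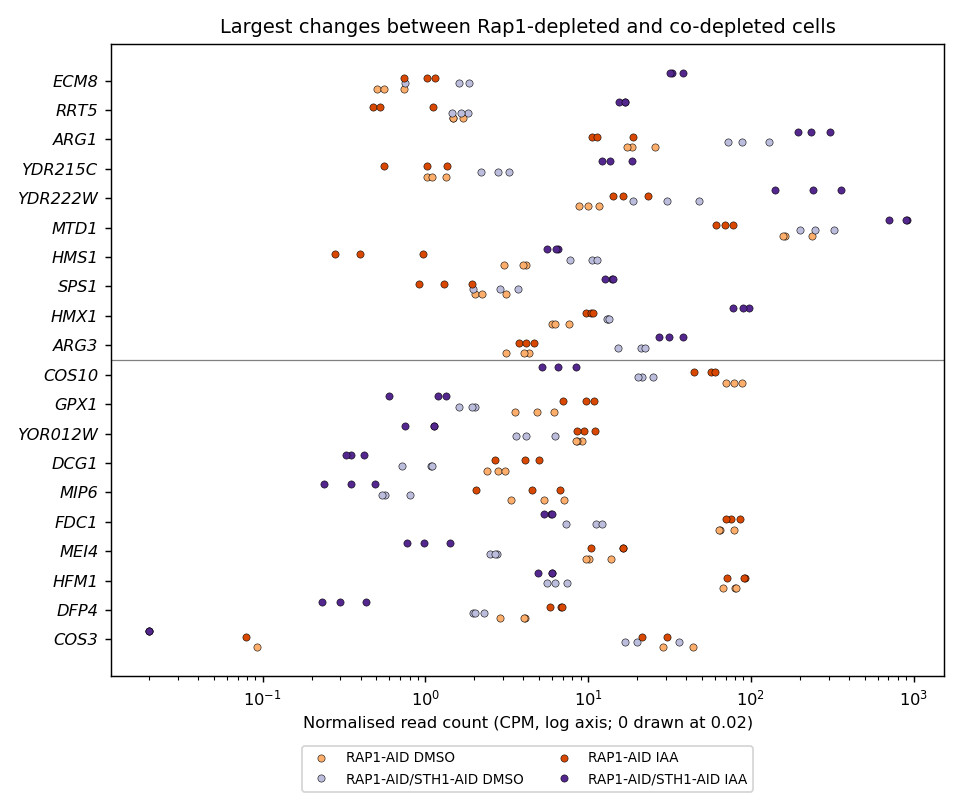
Normalised read counts (CPM, log axis) of the 10 genes with the largest increases (top) and the 10 with the largest decreases (bottom), 1 point per library for both RAP1-AID strains, without and with STH1-AID, given DMSO or IAA. ECM8 lies at 31.8 to 37.99 CPM in the co-depleted libraries and at 0.741 to 1.14 CPM in the Rap1-depleted ones, whereas HFM1 is already low in RAP1-AID/STH1-AID cells with DMSO.

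Some of these genes differed between the strains before any IAA was given. With DMSO, the strain with both degrons differed from the one with RAP1-AID alone in 153 genes (2.66%), 37 higher (0.644%) and 116 lower (2.02%). This comparison shares no library with the one under IAA. Of the 37 higher genes, 32 (86.5%) were also among the 461 that rose with IAA, where they make up 6.94%. Of the 116 lower genes, 80 (69.0%) were among the 594 that fell, where they make up 13.5%. The log2 fold changes of all 5742 genes correlated at r = 0.51 (Spearman 0.39) between these comparisons, a description over genes, which are not independent.

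HFM1 was the clearest case. Its mean was 76.0 ± 7.54 CPM (SD, n = 3) in RAP1-AID DMSO cells, 6.41 ± 0.911 in RAP1-AID/STH1-AID DMSO cells and 10.0 ± 1.74 in WT, so the strain with RAP1-AID alone stood apart from the rest. FDC1 was arranged alike, at 69.1 ± 8.26, 10.2 ± 2.58 and 11.96 ± 0.736 CPM. The change under IAA exceeded that with DMSO by −0.35 for HFM1 (adjusted p = 0.19, edgeR), by −0.55 for MIP6 (adjusted p = 0.53) and by 0.59 for ARG3 (adjusted p = 0.14), none of which was called. ARG3 encodes ornithine carbamoyltransferase and ARG1 argininosuccinate synthetase, both of arginine synthesis. Their DMSO differences were 2.35 and 2.23, and ARG1 kept a difference of 1.94 beyond that with DMSO (adjusted p = 5.8e-05).

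Testing the IAA difference against the DMSO difference called 740 genes (12.9%), 376 higher (6.55%) and 364 lower (6.34%). They included 263 of the 461 genes that rose (57.0%) and 310 of the 594 that fell (52.2%). Within the limits on counts, overlap and retrotransposons given above, the largest, beside ECM8 (3.90) and RRT5 (4.44), were DTR1 (3.73), a spore wall transporter, ICS3 (3.38), and OPT2 (3.34), an oligopeptide transporter. At the lower end stood COS3, DFP4 (−3.50), HSP42 (−2.74), YOR012W (−2.35) and HXT5 (−2.30). The small heat shock protein gene HSP42 rested on few libraries, with 22.2, 106 and 19.6 CPM after co-depletion against 229, 119 and 172 CPM. In the comparison under IAA its change of −1.81 lost its call without RAP1-AID/STH1-AID IAA replicate 1 (−1.46, adjusted p = 0.092, edgeR), without replicate 3 of that group (−1.41, adjusted p = 0.097) and without RAP1-AID IAA replicate 1 (−1.56, adjusted p = 0.071).

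The 137 cytosolic ribosomal protein genes, the classical targets of Rap1, were read higher when Sth1 was lost as well. Their median log2 fold change was 0.68 (quartiles 0.30 and 0.94), against −0.05 over all genes, and 127 of 137 had a positive value. Of these genes 25 rose (18.2%) and none fell, beside a background of 8.03% higher and 10.3% lower. At the adjusted p alone 102 were higher and 3 lower. With DMSO the difference between the strains had a median of −0.22 over these genes, and none was called. Beyond that difference the median was 0.90, with 51 higher and none lower. The 81 large subunit genes had a median of 0.65 with 14 called, and the 56 small subunit genes one of 0.71 with 11 called. The 19 genes with no A/B paralog, whose reads are not shared with a copy, had a median of 0.89 with 7 called. Relative to all genes, the median of the list was 0.73 with TMM scaling and 0.74 with total library size.

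RPL37A, which encodes a large subunit protein, had the largest change. It was read at 30.4, 45.1 and 41.1 CPM after co-depletion and at 11.1, 10.2 and 12.4 CPM after Rap1 depletion (1.79 ± 0.16). RPS21B, a small subunit gene, was read at 15.2, 17.6 and 13.4 against 4.70, 4.14 and 4.71 CPM (1.77 ± 0.17). These genes were picked after their values were seen. By the rule on smallest adjusted p, RPS31, the ubiquitin-S31 fusion, rose by 1.51 ± 0.12, RPL1B by 1.50 ± 0.11 and RPL11B by 1.09 ± 0.10, the last losing its call without RAP1-AID/STH1-AID IAA replicate 2 (0.996). RPL1B and RPL11B share reads with their paralogs. At the other end of the list, RPL8A, also picked after its value was seen, stood at −0.48 ± 0.09 and was not called.

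The level stayed below that of both strains with DMSO. The median over the ribosomal protein genes of log2(CPM + 0.5) was 5.16, 5.34 and 5.48 in RAP1-AID IAA and 6.02, 6.04 and 6.10 in RAP1-AID/STH1-AID IAA, with no overlap. It was 6.86 to 7.40 in RAP1-AID DMSO and 6.73 to 6.94 in RAP1-AID/STH1-AID DMSO. Rap1 depletion, which shares the RAP1-AID IAA libraries, gave a median log2 fold change of −1.52 with 106 of the genes lower. RPL43B and RPL40B, at which divergent transcription is known to be repressed by Rap1, were read at 11.4, 10.7 and 10.7 against 7.86, 6.98 and 6.02 CPM (0.65 ± 0.20) and at 13.8, 15.5 and 16.9 against 9.01, 8.01 and 11.0 CPM (0.72 ± 0.14). Neither passed the fold limit, at adjusted p = 0.0065 and 1.8e-04 (edgeR), although the libraries of each gene did not overlap. RPS10A had a value of 0.42 ± 0.17 (adjusted p = 0.039).

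**Figure D2:**
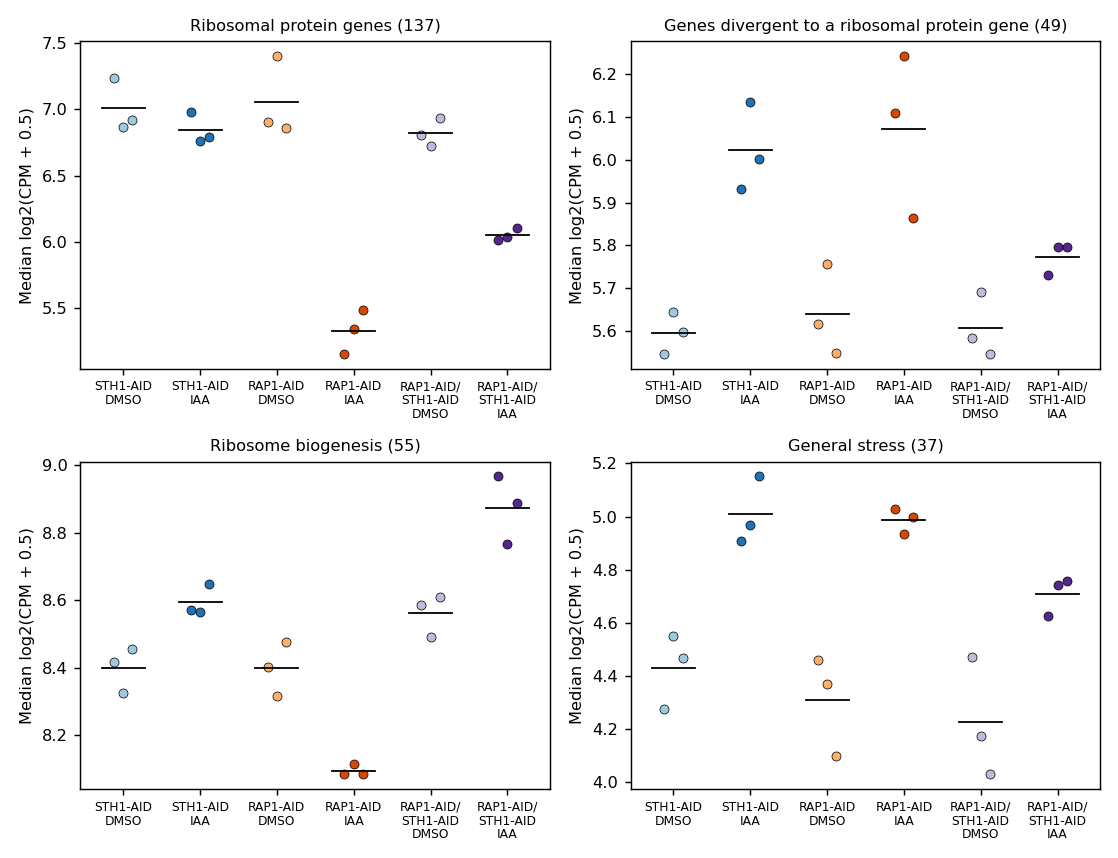
Median log2(CPM + 0.5) of gene lists in each of the libraries, 1 point per library and grouped by condition. For ribosomal protein genes the 3 co-depleted libraries lie at 6.02 to 6.10, between the Rap1-depleted libraries at 5.16 to 5.48 and the DMSO libraries of both strains at 6.73 to 7.40.

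Of 52 genes that start within 1000 bp upstream of a ribosomal protein gene on the other strand, 49 were tested. Their median log2 fold change was −0.02, and 1 rose (SER1, a serine synthesis gene, 1.20 ± 0.14) while 6 fell (12.2%, beside 10.3% of all genes). RXT3, a subunit of the Rpd3L histone deacetylase complex that lies opposite RPL31A, was read at 80.3, 80.0 and 81.0 CPM after co-depletion and at 182, 222 and 230 CPM after Rap1 depletion (−1.39 ± 0.09). UGO1, a mitochondrial fusion gene opposite RPL27B whose window above carries the Rap1 motif, was read at 39.8, 34.2 and 43.9 against 88.5, 96.8 and 88.4 CPM (−1.21 ± 0.10). Both were lower in every co-depleted library. REH1, a ribosome maturation factor gene opposite RPS29A, was read at 52.6, 55.01 and 57.0 against 114, 112 and 117 CPM (−1.05 ± 0.08), which is −0.996 and no longer a call with DESeq2's size factors. NAT3 (−1.52), opposite RPS23B, COI1 (−1.46), opposite RPP2B, and SOP4 (−1.04), opposite RPS14B, also fell and were looked up after their values were seen.

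Of the ribosomal protein genes facing these 6, RPS23B was called (1.01 ± 0.18). Its call was lost without RAP1-AID IAA replicate 1 (0.87) or 2 (0.98), without RAP1-AID/STH1-AID IAA replicate 3 (0.95) and with total library size (0.63). The others had values of 0.65 ± 0.14 (RPL31A), −0.34 ± 0.14 (RPL27B), 0.93 ± 0.26 (RPS29A), 0.38 ± 0.12 (RPP2B) and −0.03 ± 0.17 (RPS14B), none called. YOR292C, an uncharacterised gene, was read at 58.2, 68.1 and 60.5 against 85.2, 98.1 and 77.6 CPM (−0.48 ± 0.14, adjusted p = 0.0060, edgeR), below the fold limit and without overlap. Its mean in RAP1-AID DMSO cells was 27.2 ± 2.12 CPM, and that of RXT3 was 47.4 ± 2.38 CPM, so both stayed above the DMSO level after co-depletion. The other neighbours that fell were divided. Mean CPM after co-depletion was above that in RAP1-AID DMSO for UGO1 (39.3 against 34.1) and NAT3 (23.3 against 19.4). It was below for REH1 (54.9 against 113), SOP4 (38.4 against 50.9) and COI1 (2.4 against 4.0). In the 300-base windows the Rap1 motif occurs at 6 of 137 ribosomal protein genes (4.38%), 6 of 52 divergent neighbours (11.5%) and 58 of 5741 genes tested (1.01%). An absent match says only that these letters are not in the window.

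Lists of other growth genes had medians above that of all genes. Of 55 ribosome biogenesis genes 5 rose and none fell, with a median of 0.64 and 51 positive values. The share called, 9.09%, is near the 8.03% of all genes. NUG1, a GTPase of 60S export, was read at 715, 555 and 693 against 236, 277 and 247 CPM (1.37 ± 0.10), and SSF1, a large subunit assembly factor, rose by 1.31 ± 0.11. The translation factor list had 1 of 19 genes higher (5.26%), TEF1 (1.11 ± 0.14), which shares reads with TEF2, and a median of 0.67. Of 48 small nuclear and nucleolar RNA genes tested among 81, 7 rose and none fell (median 0.59), beside 9.17% of all features higher. Among these genes 1 was higher and none lower beyond the strain difference with DMSO. SNR17A and SNR17B, the U3 RNA copies that share reads, rose by 2.17 ± 0.33 and 1.75 ± 0.32. Glycolysis and fermentation genes moved both ways, with 3 of 19 higher (15.8%), 2 lower (10.5%, near the 10.3% of all genes) and a median of 0.65. PGI1, phosphoglucose isomerase, was read at 1287, 1485 and 1086 against 421, 383 and 538 CPM (1.52 ± 0.14), and ENO1, an enolase, rose by 2.01 ± 0.24, whereas PDC6, a minor pyruvate decarboxylase, fell by 1.64.

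No Pol II subunit gene was called of 12 (median 0.52) and no histone gene of 10 (median 0.35). Of 67 mitochondrial ribosomal protein genes 4 fell (5.97%, below the 10.3% of all genes) and none rose (median −0.09). Those that fell included MRPL23 (−1.66 ± 0.14) and MRP17 (−1.24 ± 0.14). Of 32 proteasome genes 1 fell (3.1%), PRE1 (−1.07 ± 0.10), and it lost its call without RAP1-AID/STH1-AID IAA replicate 3 (−0.95).

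Nutrient genes rose and fell. Of 24 genes of methionine and sulfate metabolism, 10 rose (41.7%) and 1 fell (4.17%), with a median of 0.79, beside 8.03% and 10.3% of all genes. SAM1, an S-adenosylmethionine synthetase, was read at 831, 915 and 950 against 275, 324 and 316 CPM (1.56 ± 0.13), MET6, the methionine synthase, rose by 1.54 ± 0.14 and MUP1, the methionine permease, by 1.45 ± 0.11. MET22, a bisphosphate nucleotidase, fell by 1.69 and was already lower with DMSO (−1.35). MET17, which differs between the strains of the series, did not separate the pair compared. It was read at 36.4 ± 1.75 CPM in RAP1-AID/STH1-AID IAA and 30.3 ± 1.22 in RAP1-AID IAA, but at 0.0588 CPM in STH1-AID IAA. The paper lists a deletion of this gene, as MET15, for all these strains. The STH1-AID strain, which gives the values with Rap1, thus differs here from both compared strains. What this adds to the difference with and without Rap1 was not tested. Of 41 amino acid synthesis genes tested, 6 rose (14.6%) and 1 fell (2.44%), with a median of 0.23. ARG56, of arginine synthesis, rose by 1.64 ± 0.12 and HIS1, of histidine synthesis, by 1.16 ± 0.09. ARG56 already stood higher by 0.86 with DMSO and was not called beyond that (0.77). In this list 2 genes were higher and none lower beyond the strain difference with DMSO.

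Of 15 hexose transport genes 5 rose (33.3%) and 1 fell (6.67%), beside 8.03% and 10.3% of all genes. HXT7, a high-affinity glucose transporter that shares reads with HXT6, was read at 134, 155 and 117 against 27.3, 19.8 and 37.2 CPM (2.27 ± 0.24), and HXT2 rose by 1.71 ± 0.19. HXT5, a transporter of slow growth, was read at 6.30, 5.96 and 7.09 against 27.2, 23.2 and 33.9 CPM (−2.12 ± 0.18), so the family did not move as one. Of 25 metal uptake genes 6 rose and 3 fell. FTR1, the iron permease, rose by 1.33 ± 0.13 and ARN1, a siderophore transporter, by 1.45 ± 0.16, whereas FET4, a low-affinity iron transporter, fell by 1.54. Of 15 phosphate genes 1 rose (6.67%) and 3 fell (20.0%, median −0.55), with GIT1, a glycerophosphoinositol permease, at −2.61 ± 0.30. GIT1 was already lower by 1.64 with DMSO, and its difference beyond that, −0.97, was not called. No phosphate gene was called beyond the strain difference with DMSO.

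Of 25 cell wall genes 5 rose (20.0%), none fell and 24 had a positive value (median 0.75). Beyond the strain difference with DMSO, 2 were higher and none lower. CWP1, a cell wall mannoprotein, was read at 231, 199 and 235 against 29.9, 35.1 and 27.7 CPM (2.84 ± 0.13), and GAS1, a glucan-remodelling enzyme, rose by 1.17 ± 0.13. General stress genes split, with 5 of 37 higher (13.5%) and 7 lower (18.9%), beside 8.03% and 10.3% of all genes (median −0.15). HSP12, a membrane-protecting stress protein, was read at 12.4, 15.4 and 11.6 against 2.92, 3.35 and 4.84 CPM (1.83 ± 0.26), and YGP1, a secreted stress glycoprotein, rose by 1.51 ± 0.23. GPX1, already named, and NQM1, a transaldolase (−1.32 ± 0.16), fell. Of 18 early meiosis genes tested, 3 rose (16.7%) and 5 fell (27.8%), while 3 were higher and 1 lower beyond the strain difference with DMSO. MEK1, a meiotic kinase, stood at 3.99, 3.34 and 4.28 against 0.0790, 0.158 and 0.305 CPM (4.40 ± 0.51), whereas ZIP1, of the synaptonemal complex, fell by 1.16. Among the silencing and telomere genes, 1 of 11 fell, HMRA1 (−1.33 ± 0.19), and within 20 kb of a chromosome end 27 of 198 tested genes rose (13.6%) and 45 fell (22.7%), beside the same shares of all genes. With DMSO, 3 of these 198 genes were already higher and 21 lower in the strain with both degrons, beside 0.644% and 2.02% of all genes. Beyond that difference 19 were higher and 15 lower (median 0.05), beside 6.55% and 6.34% of all genes.

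**Figure D3:**
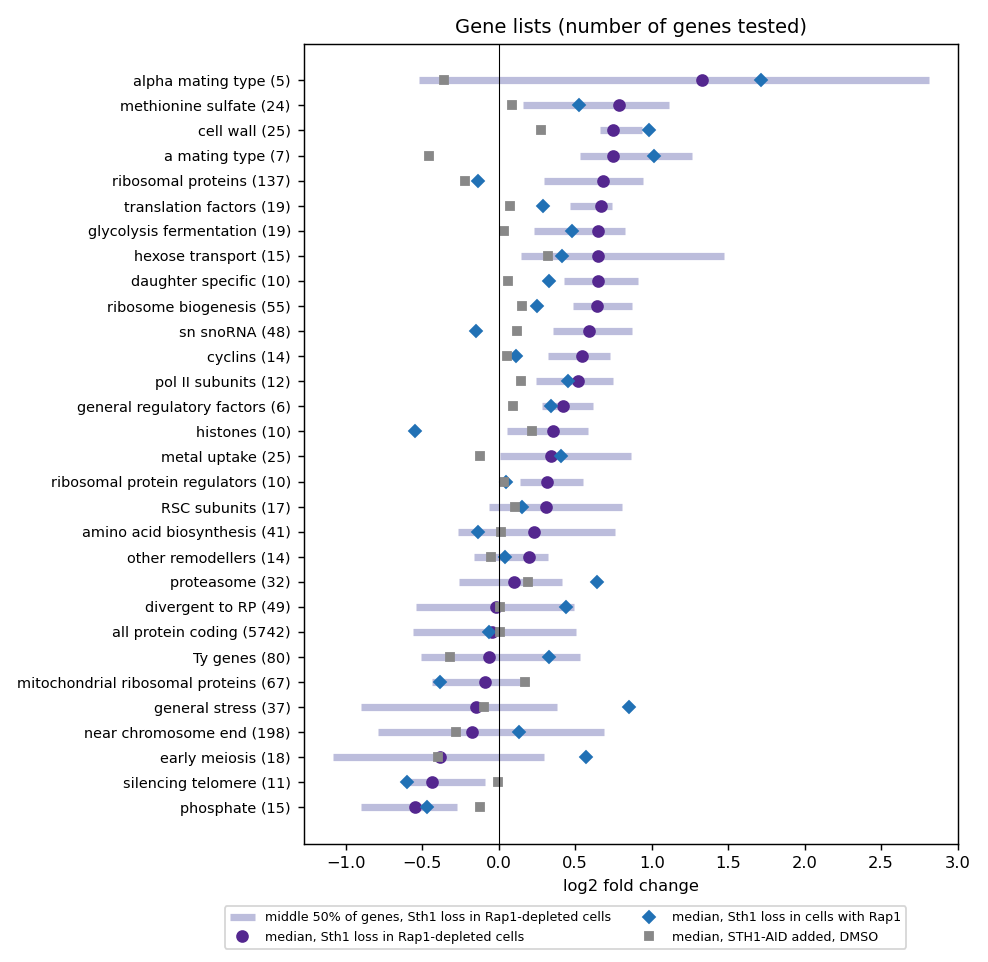
Log2 fold changes of gene lists, with the number of genes tested in parentheses. Bars span the middle 50% of genes and circles the median of Sth1 loss in Rap1-depleted cells, diamonds the median of Sth1 loss in cells with Rap1 and squares that of the strain difference with DMSO. Ribosomal protein genes have a median of 0.68 without Rap1 and −0.13 with it, and general stress genes −0.15 and 0.85. The values with Rap1 set IAA against DMSO.

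Sth1 loss in cells that keep Rap1, STH1-AID IAA against STH1-AID DMSO, shares no library with the comparison above. It sets IAA against DMSO, so it also holds any effect of IAA itself, which both sides of the comparison above share. The series has no WT cells with IAA. This comparison called 1515 genes (26.4%), 604 higher (10.5%) and 911 lower (15.9%). The log2 fold changes of the 5742 genes correlated at r = 0.67 (Spearman 0.71). Of the 461 genes that rose without Rap1, 239 rose with it too (51.8% of the former, 39.6% of the latter). Of the 594 that fell, 329 fell with it (55.4% and 36.1%). Among the named genes, ECM8 went from 2.51 ± 0.588 to 48.1 ± 4.55 CPM (log2 4.25) and DFP4 had a value of −4.26. The differences from the values without Rap1 were 0.87 and −0.05, and neither was called.

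Testing the difference between the effects directly called 671 genes (11.7%), 305 with a higher value without Rap1 (5.31%) and 366 with a lower one (6.37%). Of these, 20 (6.56%) of the former and 69 (18.9%) of the latter were also called in the strain difference with DMSO. The difference between the effects also holds any effect of IAA itself, which enters only the values with Rap1, and this was not tested. Of the ribosomal protein genes, 36 of 137 were higher and none lower, with a median difference of 0.78, beside a median of 0.11 over all genes. Sth1 loss with Rap1 gave them a median of −0.13 with none higher and 1 lower. RPL37A had a value of −0.07 there (difference 1.86) and RPS31 of 0.32 (difference 1.19).

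Histone genes were higher in 6 of 10 (median difference 1.02), snoRNA genes in 12 of 48 (0.70) and amino acid synthesis genes in 6 of 41 (0.43), with none lower in these 3 lists. Over all protein-coding genes 5.31% were higher and 6.37% lower, and 334 of 6164 features were higher. General stress genes stood at the other side, with 17 of 37 lower, none higher and a median difference of −1.03. With Rap1 present 15 of them rose and none fell (median 0.85), and HSP12 went from 1.79 ± 0.941 to 32.2 ± 3.19 CPM. Rap1 depletion, which shares libraries with the main comparison and also sets IAA against DMSO, had 10 of the 37 higher, beside 90 of 5742 genes. The neighbours divergent to ribosomal protein genes had 14 of 49 lower and 2 higher (median difference −0.26). RXT3, UGO1 and REH1 gave 0.68, 0.85 and 1.05 with Rap1 and differed by −2.08, −2.07 and −2.10. YOR292C gave 0.87 with Rap1 and differed by −1.35 (adjusted p = 4.7e-05, edgeR).

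The largest single differences, within the limits on counts, overlap and retrotransposons given above and among genes called in the test, were of both kinds. CRC1, the carnitine carrier, fell without Rap1 (0.694, 0.536 and 0.920 against 3.83, 5.13 and 3.23 CPM, −2.49 ± 0.39) and rose with it (2.25), a difference of −4.73. SGA1, a sporulation glucoamylase, gave −2.04 and 1.92 (difference −3.97), and MSH5, a meiotic crossover protein, −2.01 and 1.11 (difference −3.12). MSH5 was already lower by 2.00 with DMSO, and its IAA difference exceeded this by −0.01. YGL081W (−3.39) and HFM1 (−3.64) complete the 5 lowest within these limits. With DMSO the strains already differed by −1.67 for YGL081W, −1.26 for CRC1 and −0.57 for SGA1. On the higher side, FRE7, a copper-regulated reductase, fell by 1.26 without Rap1 and by 4.65 with it, a difference of 3.39, and POP6, a ribonuclease P subunit, by 1.15 and 3.68 (difference 2.52). The POP6 decrease without Rap1 is −0.75 without RAP1-AID IAA replicate 2. RKI1, ribose-5-phosphate isomerase, was read at 25.4, 24.6 and 24.1 against 35.0, 40.8 and 30.7 CPM without Rap1, a value of −0.52 that was not called, and fell from 42.5 ± 4.62 to 4.79 ± 0.797 CPM with Rap1 (−3.15). ARG1 (2.89), HMS1 (2.59) and ARG3 (2.50) were also higher, and ARG1 and ARG3 differ between strains with DMSO as given above.

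In 18 genes a decrease was called without Rap1 and an increase with it, and in 1 gene the reverse. The 18 included CRC1, SGA1, MSH5, REH1, TKL2 (−1.92 and 1.12), a transketolase, XBP1 (−1.15 and 1.72), a stress repressor, and REC8 (−1.39 and 1.31), the meiotic cohesin. With DMSO the strain with both degrons was already lower for REC8 (−1.52), CRC1 (−1.26) and TKL2 (−1.25), as it was for MSH5. That strain difference was −0.57 for SGA1, −0.13 for XBP1 and 0.14 for REH1. The decrease of XBP1 under IAA is −0.93 without RAP1-AID IAA replicate 3. The 1 in the other direction was SCEI, an intron-encoded endonuclease of the mitochondrial genome with at most 2.98 CPM, whose call was lost on leaving out any 1 of the 6 libraries (adjusted p = 0.051 to 0.12, edgeR). TKL2, XBP1 and SCEI were chosen after their values were seen.

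**Figure D4:**
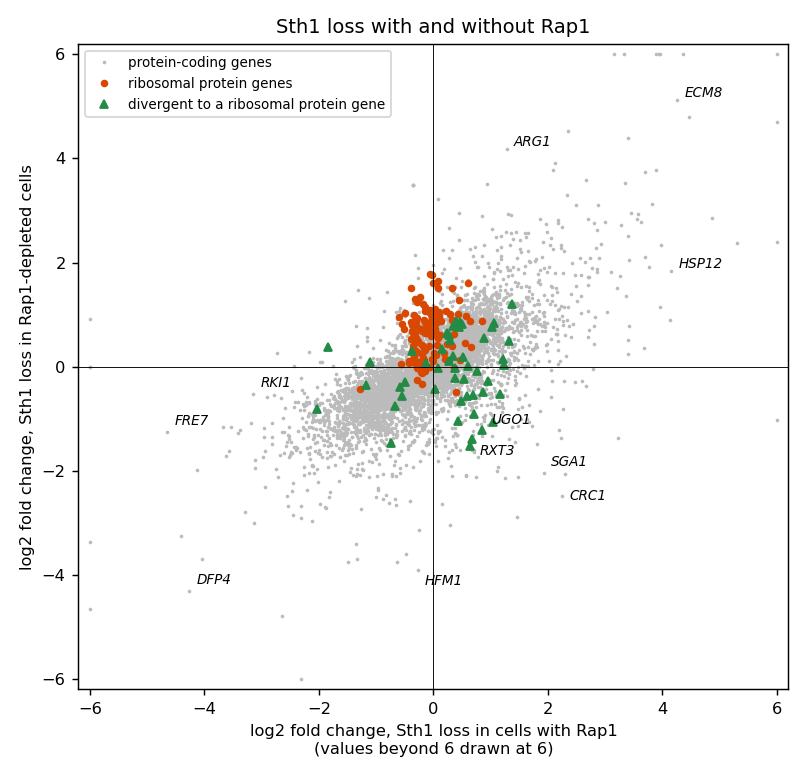
Log2 fold changes of protein-coding genes for Sth1 loss in cells with Rap1 (x) and in Rap1-depleted cells (y), each point a gene, with ribosomal protein genes and their divergent neighbours coloured. The genes correlate at r = 0.67, and the ribosomal protein genes lie above 0 on the y axis in 127 of 137 cases.

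Calls varied with how strongly a gene is transcribed in WT cells, which do not enter the comparison. Genes were divided into 5 classes of equal size by CPM per kb in WT. In the lowest class, with a median of 4.92 CPM per kb, 16.3% rose and 20.3% fell. In the highest, with a median of 225.7, 12.5% rose and 2.52% fell, and the median log2 fold change was 0.44 beside −0.16 in the lowest and −0.35 in the next. The middle class had 3.66% higher and 7.58% lower. With Rap1 present, 27.9% rose and 13.2% fell in the lowest class and 9.57% and 8.09% in the highest. The strain difference with DMSO was also called most often in the lowest class, at 2.00% higher and 8.70% lower.

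**Figure D5:**
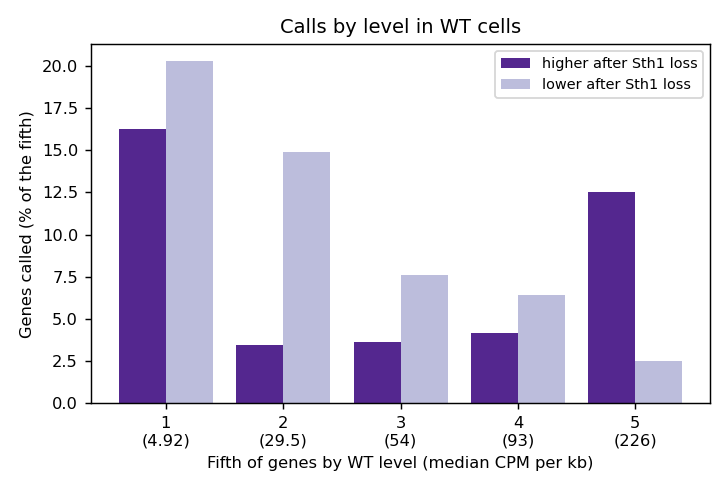
Percent of genes called higher (dark) and lower (light) after Sth1 loss in Rap1-depleted cells in 5 classes of genes ordered by WT level, with the median CPM per kb in parentheses. The share that fell drops from 20.3% to 2.52%, and the share that rose is 16.3% and 12.5% at the ends and 3.66% in the middle.

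The promoter windows of the genes that rose held TATAAA in 56.7% of cases, against 48.0% of those that fell and 45.2% of all genes tested. AAAAAAA, the simplest form of the A-tracts that RSC is known to prefer, was in 55.2%, 48.0% and 50.4%, and CGCG or CGGG, cores of the Rsc3-type motif, in 48.0%, 56.9% and 56.6%. All were searched on both strands, and the AAAAAAA and TATAAA matches can share bases. The Rap1 motif was in 1.52%, 0.842% and 1.01%. The share of genes that fell dropped steadily with gene length, and the share that rose did not. In the shortest of 5 length classes (median 462 bases) 10.7% rose and 17.8% fell, and in the longest (median 2895 bases) 4.27% and 4.87%. The classes between, in order of length, had 7.93%, 8.10% and 9.15% higher. An upstream neighbour on the other strand was present for 50.5% of genes that rose, 45.6% of those that fell and 51.6% of all.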

How the data were processed

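Nascent RNA-seq was analysed in 21 libraries, 3 for each of 7 groups, grouped by the sample labels. The authors purified Rpb3-associated RNA, removed ribosomal RNA, made stranded libraries, trimmed reads with cutadapt 1.9.1 and ran STAR 2.5.2a and RSEM 1.3.0 against Ensembl R64-1-1. Expected counts, as deposited by the authors, are RSEM estimates per gene, not normalised between libraries, and reads that fit several genes are divided among them. TPM columns, also deposited, are scaled to length and library total and entered no test. The authors' own comparisons used DESeq2 1.12.3. No molecular identifiers were used, so counting precision covers counting error only, and p-values measure the spread between libraries.

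Expected counts were rounded and fitted with edgeR 4.0.16 in R 4.3.3 (TMM, filterByExpr by group, quasi-likelihood, all 21 libraries, 1 coefficient per group, 14 residual degrees of freedom). Benjamini-Hochberg adjustment ran over the 6164 features kept of 7126, of which 5742 are protein-coding, and genes were called at adjusted p below 0.05 with a change of over 1 on the log2 scale. All sequences and names come from RefSeq R64, to which 6130 features matched. Named genes are STH1, RAP1, RSC subunits, general regulatory factors, MET17, RPL43B, RPL40B, RPS10A and YOR292C, the 10 largest changes per direction (mean of at least 50 counts, no overlap of groups, no retrotransposon), up to 3 genes of smallest adjusted p per list and direction, and, within the same limits, the 5 largest per direction of the differences from the strains with DMSO and from Sth1 loss with Rap1. Others are named in the text as chosen after their values were seen. The members and lists were chosen with earlier results of these data known. On simulated counts with 200 changed genes among 6096, all 100 genes changed by 1.5 and all 100 changed by 3 on the log2 scale were found for the main comparison, with 1 false call among 5896. Every simulated gene had the same spread, and unchanged genes had equal means in all groups. Only genes averaging at least 50 counts were changed, so recovery for noisier or less covered genes was not tested. Deviations from group means of same-numbered libraries correlated, over features, at 0.104 to 0.451 between STH1-AID IAA and DMSO, 0.324 to 0.479 between RAP1-AID IAA and DMSO and 0.129 to 0.558 between RAP1-AID/STH1-AID IAA and DMSO, so the numbers pair libraries within a strain, a pairing read from the data. The alternatives were DESeq2 1.42.0 size factors and its Wald test, total library size, replicate number as a block, a filter at a mean of 10 counts, no filter, only the libraries compared, adjusted p of at most 0.01, no fold limit, adjustment over protein-coding genes, genes without an opposite-strand overlap of 100 bp, ribosomal protein genes without a paralog, and each library left out. With 3 against 3 libraries the smallest p of an exact permutation test is 0.1, and none was used. No column of samples outside the series was present, and noncoding transcripts outside the gene annotation were not analysed here.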

Additional observations from a re-analysis of the deposited data

Results flagged for a closer look

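The effect of Sth1 loss differed with and without Rap1 in 305 genes with a higher and 366 with a lower value, and it differed from the strain difference with DMSO in 376 and 364. These are tests of the difference itself in edgeR, at adjusted p below 0.05 and a log2 difference above 1. The values with Rap1 set IAA against DMSO, so the difference with and without Rap1 also holds any effect of IAA itself. Some named genes were chosen by the size of the difference with and without Rap1 or after their values were seen. Counts among the named genes therefore do not measure how common it is. Over all genes 5.31% were higher and 6.37% lower. Of 147 named genes other than retrotransposons, 26 had a higher and 28 a lower value without Rap1 than with it. The log2 difference was over 2 for 8 of the former, FRE7 (3.39), ARG1 (2.89), SCEI (2.80), RKI1 (2.63), HMS1 (2.59), POP6 (2.52), ARG3 (2.50) and RRT5 (2.19). It was below −2 for 20 of the latter. Those were CRC1 (−4.73), SGA1 (−3.97), HFM1 (−3.64), YGL081W (−3.39), MSH5 (−3.12), MIP6 (−3.11), FDC1 (−3.10), TKL2 (−3.04), GPX1 (−2.89), HXT5 (−2.87), XBP1 (−2.87), REC8 (−2.70), HSP12 (−2.33), MEI4 (−2.26), REH1 (−2.10), RXT3 (−2.08), UGO1 (−2.07), DCG1 (−2.07), STE3 (−2.06) and NQM1 (−2.01). Smaller differences included RPL37A (1.86), RPS21B (1.79), YDR215C (1.79), YDR222W (1.70), RPL40B (1.24) and YOR292C (−1.35). The strain difference with DMSO was −3.56 for HFM1, −3.05 for MIP6, −2.76 for FDC1, −2.07 for MEI4, 2.35 for ARG3 and 2.23 for ARG1, and its part in these differences was not tested for each gene.

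Outside the genes of the reference, 338 features named as open reading frames were tested, of which 85 were higher (25.1%) and 20 lower (5.92%) after Sth1 loss in Rap1-depleted cells, beside 9.17% and 10.0% of all features (median log2 fold change 0.45).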

How the results depend on the processing

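No named gene that was called changed direction under any alternative run, but counts depend on the scaling and the fold limit, and the cause of these shifts was not tested. With total library size, Sth1 loss in Rap1-depleted cells gave 209 genes higher and 1297 lower, the part beyond the strain difference 171 and 933, Sth1 loss with Rap1 375 and 1372, and the difference with and without Rap1 199 higher. The median of the ribosomal protein genes was 0.31 with total library size and 0.89 over the genes with no paralog. With no fold limit the counts were 1941 and 2248, 364 and 622 for the strain difference with DMSO, 1469 and 1677 beyond it, 2056 and 2345 with Rap1, and 1509 and 947 for the difference. DESeq2 size factors gave 526 and 523, and its Wald test 518 and 522, in the main comparison.

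Under total library size, which moves the median of all genes to −0.43, the list medians that changed sign were ribosomal protein regulators and RSC subunits (−0.070 and −0.074), other remodellers (−0.19), histones (−0.035), metal uptake (−0.044) and amino acid synthesis (−0.15). So did LDB7 (−0.15), HTL1 (−0.092), RSC6 (−0.047), RSC8 (−0.074), ABF1 (−0.12), STE6 (−0.20), MET17 (−0.12), SFH1 (−0.084), RAP1 (−0.14) and TBF1 (−0.044), none of them called. The alpha mating type median was −0.52 with the filter at 10 counts, and RTT102 ranged from −0.167 to 0.050 on leaving out 1 library. The other 27 changes of named genes under total library size were losses of a call, among them RSC4 (0.67), NUG1 (0.98), SSF1 (0.92), TEF1 (0.72), HIS1 (0.79), GAS1 (0.79), FTR1 (0.94), CBF1 (0.88), SER1 (0.82) and PMA1 (0.86).

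Leaving out each library in turn gave 435 to 492 higher and 547 to 651 lower genes in the main comparison, 26 to 46 and 90 to 133 for the strain difference, 331 to 402 and 302 to 452 beyond it, 547 to 596 and 906 to 953 with Rap1, 282 to 363 and 345 to 391 for the difference, and 0.63 to 0.73 for the ribosomal protein median. Of the 1055 calls, 807 were kept in every one of the fits without 1 of the 6 libraries. Replicate numbers did not pair the libraries of the main comparison, whose same-numbered deviations correlated at −0.035, −0.0213 and −0.0295. With the replicate block 458 genes were higher and 602 lower, 1049 of the calls were shared, and no call of a named gene changed. Within a strain the numbers paired the IAA and DMSO libraries. There the block gave 601 higher and 919 lower genes for Sth1 loss with Rap1 (1508 of 1515 calls shared), 379 and 373 beyond the strain difference (734 of 740) and 318 and 380 for the difference with and without Rap1 (660 of 671). It lost no call of a named gene in these and added SNR13 (1.11) beyond the strain difference and TDH1 (−1.05) and YOR012W (1.16) for the difference with and without Rap1. Depth limits genes of a few counts, such as SCEI, MF(ALPHA)1 and MF(ALPHA)2.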

Other observations

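Genes of the mitochondrial genome, which Pol II does not transcribe, were read in these libraries and rose in 6 of 14 cases with none lower (median log2 fold change 0.96), beside 8.03% higher and 10.3% lower of all genes. The 6 include SCEI, whose call was lost on leaving out any 1 library of the comparison, as given above. COX1, a subunit of cytochrome c oxidase, was read at 95.9, 88.9 and 102 CPM after co-depletion and at 31.5, 36.2 and 47.9 CPM after Rap1 depletion (1.31), and COB, cytochrome b, at 27.9, 20.5 and 26.6 against 10.1, 9.79 and 7.72 CPM (1.44). With Rap1 present, Sth1 loss left none of the 14 higher and 1 lower, SCEI (median −0.32), beside 10.5% and 15.9% of all genes.

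Of 7 a-specific genes 3 rose (42.9%) and none fell, beside 8.03% and 10.3% of all genes. Of 5 alpha-specific genes tested 3 rose and 1 fell (STE3, −1.60), with MF(ALPHA)1 and MF(ALPHA)2 at or under 1.76 CPM in every group mean. MFA2, an a-factor gene, stood at 11.7, 12.6 and 9.96 against 4.62, 3.87 and 5.10 CPM (1.33 ± 0.21), and SAG1, the alpha-agglutinin, at 182, 131 and 153 against 62.8, 59.0 and 64.1 CPM (1.33 ± 0.11). The G1 cyclin genes PCL1 (1.23 ± 0.10) and PCL2 (1.04 ± 0.08) rose among 14 cyclins and their inhibitors, and PCL2 was at 0.96 without RAP1-AID IAA replicate 1. PCL2 already stood higher by 0.51 with DMSO and was not called beyond that (0.53). With total library size MFA2 (0.95), SAG1 (0.94), PCL1 (0.84) and PCL2 (0.66) were not called.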
